A study of Homo sapiens with 8 samples.

Results

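Polypyrimidine tract binding protein (PTB) is a splicing regulator with several RNA recognition domains that bind pyrimidine-rich RNA, often in introns beside the exons it controls. It is best known for keeping exons out of messenger RNA, and a small set of genes served to work out how it does so. PTB is known to act on PKM (pyruvate kinase, with a pair of mutually exclusive exons), TPM1 (tropomyosin, an actin filament protein), ACTN1 (alpha-actinin, an actin crosslinker), FAS (a death receptor), FGFR2 (a fibroblast growth factor receptor) and CTTN (cortactin, an actin-binding protein). These 6 genes are described here by the crosslinking sites listed within them.

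The members are all peaks on the strand of the gene that overlap 1 of 6 spans in hg19. PKM was taken as chr15:72491370-72523727 on the minus strand and TPM1 as chr15:63334838-63364111 on the plus strand. ACTN1 was taken as chr14:69340840-69446083 (minus) and FAS as chr10:90750288-90775542 (plus). FGFR2 was taken as chr10:123237844-123357972 (minus) and CTTN as chr11:70244612-70282690 (plus). The spans held 203 of the 266317 peaks in all 5 lists. The rule uses position and strand alone, though the genes were picked with earlier results of these data known.

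The lists come from GoldCLIP, a gel-free form of CLIP, an assay that crosslinks a protein to RNA in living cells with UV light and sequences the RNA that comes down with it. All GoldCLIP cells were transgenic 293T, a human embryonic kidney line, and were kept under puromycin. They carried Halo-tagged PTB and were crosslinked with UVC, crosslinked with UVA or left without UV, or they carried Halo-tagged yellow fluorescent protein (YFP) and received UVC. The 8 samples make 2 per group, but each group has 1 peak list, so no spread between replicates and no test of a difference can be given. What promoter drives the transgenes, and whether each line is a single clone, is not stated in the labels. A further list holds PTB peaks from all samples of a published study by iCLIP, the earlier gel-based form, re-derived by the submitters. The cells of that study are not given here. Differences of study, cells and method between iCLIP and GoldCLIP cannot be told apart. Depth is unknown, and more RNA of a gene and more binding to it cannot be told apart in these lists. No gene model of hg19 was used, so peaks are placed by position in the locus and not by exon or intron.

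The 6 loci held 85 peaks in the PTB UVC list, 65 in PTB UVA and 49 in iCLIP, against 1 without UV and 3 with YFP. Peaks within 20 nt of each other were joined into sites, which gave 62 UVC, 56 UVA and 47 iCLIP sites, 1 site without UV and 2 with YFP. All 6 genes carried sites in each of the 3 PTB lists. PKM held the most UVA sites (22), FGFR2 the most UVC sites (18) and ACTN1 the most iCLIP sites (13). Per length PKM was highest in UVC and UVA, with 0.494 UVC and 0.680 UVA sites per kb, and TPM1 was highest in iCLIP with 0.410. ACTN1 had the fewest UVC sites per kb (0.0475), and FGFR2 the fewest UVA (0.00832) and iCLIP sites per kb (0.025). TPM1, ACTN1, FAS and CTTN held no control peak.

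**Figure D1:**
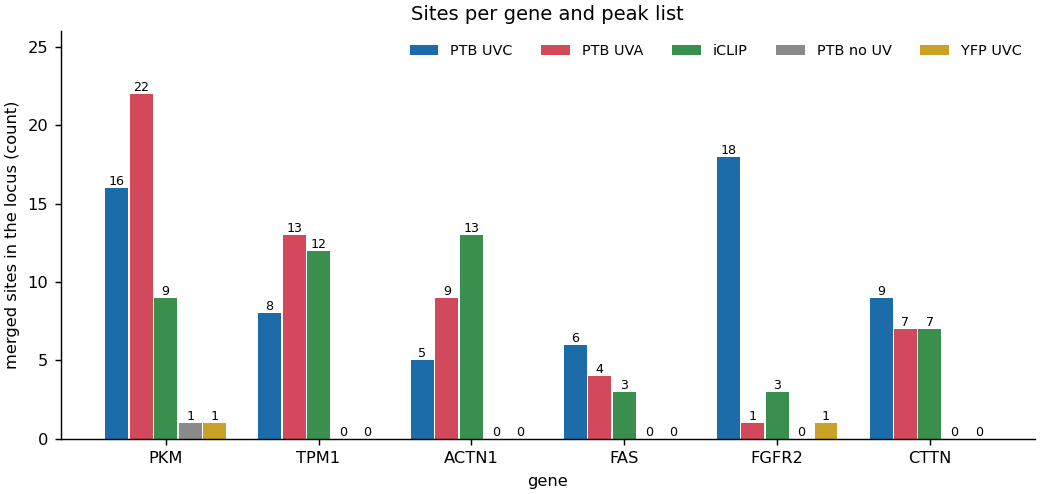
Number of merged sites (vertical axis) in each of the 6 genes, with 1 bar for each of the 5 peak lists and its count above it. PKM leads in UVA with 22 sites, FGFR2 leads in UVC with 18 and has 1 in UVA, and the controls hold 3 sites in all.

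The controls are short lists, so the same counts were also read as a share of each list. The loci took 0.0718% of UVC peaks (exact 95% interval 0.0573 to 0.0887), 0.0776% of UVA peaks (0.0599 to 0.0989) and 0.0842% of iCLIP peaks (0.0623 to 0.111). They took 0.0263% of the peaks without UV (0.000665 to 0.146) and 0.140% of the YFP peaks (0.0290 to 0.410). The YFP share, from 3 peaks, was nominally above those of the PTB lists, and all 5 intervals overlapped. All intervals are Clopper-Pearson intervals for counting error alone, with every peak taken as independent. No list had a peak on the opposite strand of any locus. Peaks on both strands were uncommon throughout: among bins of 10 kb that held a UVC peak, 1.88% held peaks on both strands, and for UVA 4.38%.

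PKM carried the highest-scoring peak of each PTB list among the 6 genes. PTB, with other repressors, is known to shift its pyruvate kinase toward the form made by proliferating cells. The UVC list had 20 peaks in it, the UVA list 30 and the iCLIP list 10, with median scores of 42.5, 132 and 91.5. The score is the authors' own, is larger for smaller p-values, and ranks peaks only within a list. Median scores over the whole lists were 19 in UVC, 92 in UVA and 47 in iCLIP. In PKM 4 UVC, 22 UVA and 4 iCLIP peaks scored at least 100, a mark that 1.95% of all UVC, 47.6% of all UVA and 24.3% of all iCLIP peaks reach. Among the UVC peaks, 11 of 20 had under 10% of their list above them, where 10.6% of the UVC list does. For UVA this held for 3 of 30 and for iCLIP for 1 of 10, against 10.0% of each whole list.

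**Figure D2:**
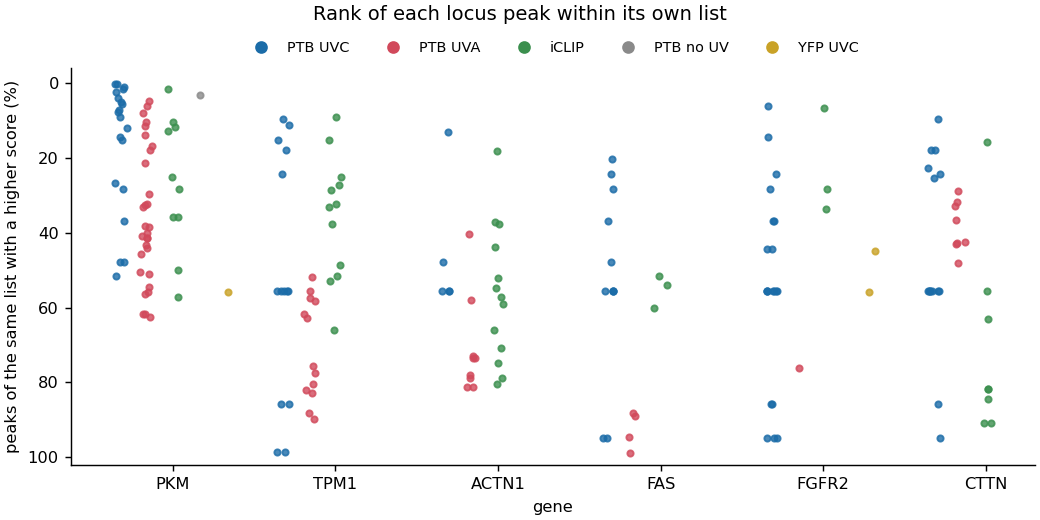
Each point is 1 peak, placed by the percent of peaks in its own list that score higher (vertical axis, best at the top) and grouped by gene and list. PKM points of the UVC list reach up to 0.236%, while in the other 5 genes UVC points start at 6.18% or lower in rank. Many of these sit at 55.6%, the tied rank of every UVC peak with a score of 16. The share of the whole UVC list at that score is not given.

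The highest PKM peaks of UVC and UVA lay at the end of the transcript, where iCLIP had none. At chr15:72491389-72491590, in the last stretch of the locus, 3 touching UVC peaks scored 895, 585 and 168, and 5 UVA peaks scored up to 799. The UVC peak of 895, at chr15:72491389-72491459, had 0.236% of its list above it. The UVA peak of 799, at chr15:72491484-72491550, had 4.77% above it. In the last 1 kb of PKM lay 3 UVC and 9 UVA peaks, and 0 iCLIP peaks. Neither control had a peak in that last 1 kb. The lack of iCLIP peaks there was not particular to PKM: over all 6 genes, the last 1 kb of the loci held 7 UVC, 11 UVA and 0 iCLIP peaks. A whole-list share near gene ends is not given, since no gene model was used.

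Further into the gene, 3 PKM sites were found by all PTB lists. At chr15:72496128-72496298 the highest peak scored 33 in UVC, 112 in UVA and 154 in iCLIP, and 44 nt (chr15:72496152-72496195) were covered by all 3. At chr15:72496362-72496605 the highest scores were 85 (UVC), 125 (UVA) and 163 (iCLIP), with 77 nt in common. At chr15:72498005-72498099 they were 56, 128 and 87, with 49 nt in common. The first and second of these are neighbours. Just downstream on the transcript, at chr15:72495519-72495596, UVA (169) and iCLIP (70) overlapped with no UVC peak.

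The strongest iCLIP peak of PKM, at chr15:72498816-72498910, scored 447 and met a UVC peak of 31 and no UVA peak. UVC and UVA shared 6 joined sites without iCLIP, the end of the transcript included; in 1 of them, chr15:72492832-72492996, their peaks touched but did not overlap. Among them, chr15:72502716-72502786 scored 116 in UVC and 376 in UVA, chr15:72509768-72509822 scored 65 and 257, and chr15:72501001-72501102 scored 44 and 305. Near the start of the locus, 0.74 kb in, UVA (471) and iCLIP (176) shared chr15:72522920-72523051. From there no PTB list had a peak until a UVA peak of 436 at 12.39 kb. With the locus cut into 4 equal stretches, 15 of 20 UVC, 21 of 30 UVA and 8 of 10 iCLIP peaks lay in the last one. Over all 6 genes, PKM included, it was 41 of 85 UVC, 35 of 65 UVA and 27 of 49 iCLIP peaks.

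**Figure D3:**
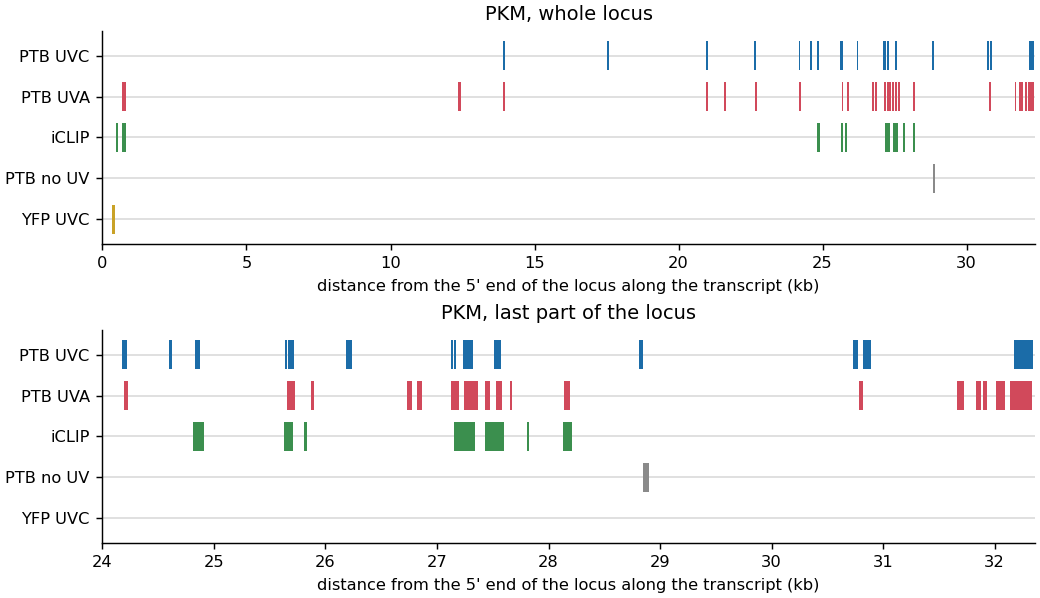
Peaks of the 5 lists along PKM, 1 row a list, against distance from the 5′ end of the locus in kb. The upper panel shows the whole locus and the lower one its last part; very narrow peaks are drawn slightly wider so that they can be seen. Sites of all 3 PTB lists stand near 25.68, 27.24 and 27.51 kb, and the block of UVC and UVA peaks at the end has no iCLIP peak.

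The controls touched PKM at 2 places. Without UV, a peak at chr15:72494827-72494885 scored 55, and 3.33% of that list scored higher. It overlapped a UVC peak of 41 at chr15:72494879-72494920, and neither UVA nor iCLIP had a peak at that position. The YFP peak, at chr15:72523295-72523393, scored 16 and met no peak of the 3 PTB lists. An iCLIP peak of 70 lay close to it without overlap, at chr15:72523204-72523254. Over the whole no-UV list 15.8% of peaks lie on a UVC peak, 12.6% on a UVA peak and 6.17% on an iCLIP peak, and over the whole YFP list 25.1%, 21.3% and 9.22% do. Over all 6 genes this made 1 of 85 UVC peaks on a control peak (1.18%, interval 0.0298 to 6.38), against 1.01% of the whole UVC list. For UVA it was 0 of 65, with an interval reaching 5.52% and a whole-list share of 1.04%. For iCLIP it was 0 of 49, with an interval reaching 7.25% and a whole-list share of 0.601%. Taken by control, the whole-list shares on no-UV peaks are 0.621% for UVC, 0.597% for UVA and 0.369% for iCLIP, and on YFP peaks 0.611%, 0.564% and 0.335%. No control peak in the loci scored at least 100, where 1.39% of no-UV and 13.4% of YFP peaks do. The no-UV peak was among the 12.9% of its list with under 10% above them, and none of the 3 YFP peaks was among the 10.0% of theirs.

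TPM1 had the largest shares of UVA and iCLIP peaks that overlapped each other among the 6 genes. PTB is known, from the rat gene, to repress 1 of a pair of mutually exclusive tropomyosin exons. TPM1 had 14 UVC, 13 UVA and 12 iCLIP peaks. Of the UVA peaks 9 of 13 lay on an iCLIP peak (69.2%, interval 38.6 to 90.9), where 20.4% of all UVA peaks do. Of the iCLIP peaks 8 of 12 lay on a UVA peak (66.7%, interval 34.9 to 90.1), where 25.9% of all iCLIP peaks do. The median scores in TPM1 were 16 in UVC, 34 in UVA and 76 in iCLIP, against 19, 92 and 47 over the whole lists. The UVC and UVA medians thus lay below those of their lists and the iCLIP median above, with 9 of 12 iCLIP peaks at or above the median of the iCLIP list.

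All UVA and iCLIP peaks of TPM1 were centred at 18.799 kb or further along the 29.274 kb locus. The strongest iCLIP peak, at chr15:63353828-63353909, scored 189 and met a UVA peak of 76 and UVC peaks of up to 16, with 43 nt common to all lists. The joined site chr15:63361993-63362093 held UVC (30), UVA (58) and iCLIP (45) peaks with 7 nt in common. At chr15:63356157-63356292 the iCLIP peak (90) met both a UVC pair (16) and a UVA peak (71), which did not meet each other. Sites of UVA and iCLIP with no UVC peak were chr15:63353594-63353697 (61 and 138), chr15:63356340-63356608 (69 and 96), chr15:63358034-63358127 (86 and 75), chr15:63358184-63358272 (34 and 43) and chr15:63361806-63361841 (19 and 66). UVC (16) and iCLIP (86) shared chr15:63354912-63355007. UVC had peaks of its own at both ends, 0.1 kb from the start and at chr15:63363992-63364101, where its score was 37. Its highest peak, chr15:63356042-63356099, scored 39 with 9.66% of the list above it and stood alone.

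ACTN1 had 5 UVC, 9 UVA and 13 iCLIP peaks over 105.244 kb. In the rat gene PTB is known to repress an exon used in smooth muscle. Of these peaks 2 UVC, 3 UVA and 2 iCLIP ones lay within 1 kb of each other, from chr14:69367178-69367254 to chr14:69367627-69367782. UVC (35) and UVA (38) shared the first of these positions, and UVA (70) and iCLIP (122) the last, the highest iCLIP peak of the gene. Between them, chr14:69367487-69367586 joined UVC (20), UVA (26) and iCLIP (29) peaks, although no base was covered by all of them. UVA (127) and iCLIP (19) also overlapped at chr14:69345350-69345452, toward the end of the transcript, as did UVA (26) and iCLIP (67) at chr14:69345579-69345634. The other 3 UVC peaks of ACTN1 were each 50 nt wide with a score of 16, and no other list had a peak there.

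FAS, FGFR2 and CTTN carried peaks in every PTB list, and none of these overlapped a peak of another PTB list. Over the whole lists 9.61% of UVC peaks lie on a UVA peak and 5.45% on an iCLIP peak, 13.6% of UVA peaks lie on a UVC and 20.4% on an iCLIP peak, and 9.59% of iCLIP peaks lie on a UVC and 25.9% on a UVA peak. With at most 20 peaks per gene and list, the interval of each 0 in these genes holds its whole-list share, so no shortfall was detectable in any of them taken singly. In FAS, PTB is known to favour skipping of the exon that encodes the membrane anchor. FAS had 11 UVC peaks scoring 14 to 29, 4 UVA peaks scoring 13 to 19 and 3 iCLIP peaks scoring 35 to 45. The UVA peaks of FAS were low in their list, with 88.2% to 98.9% of UVA peaks above them. The nearest approach in FAS was at chr10:90774367-90774459, where a UVA peak (13) and a UVC pair (16) lay 2 nt apart. The highest iCLIP peak, chr10:90771664-90771726, and the highest UVC peak, chr10:90771160-90771214, were 449 nt apart.

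The count of FGFR2 peaks differed widely between the PTB lists. PTB is known to repress the epithelial one of its pair of alternative exons. The UVC list had 20 peaks in 18 sites, spread from 4.997 kb to 120.07 kb of the locus, with scores of 14 to 50. The UVA list had 1 peak, at chr10:123354865-123354911 with a score of 33. The iCLIP list had 3 peaks, of which chr10:123333051-123333147 scored 226, with 6.57% of its list above it. No UVC peak came nearer than 1864 nt to the UVA peak or 1913 nt to an iCLIP peak. The YFP list had 2 touching peaks in FGFR2, at chr10:123335250-123335348, which scored 17 and 16. Counted as sites, the locus held 1 of UVA and 1 of YFP. Of its UVC peaks, 6 were 50 nt wide with a score of 16 and the same p-value of 0.024, which the list gives to 2760 peaks.

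CTTN had 15 UVC, 8 UVA and 8 iCLIP peaks. None overlapped between lists, with upper limits of 21.8% for UVC peaks on UVA peaks (whole list 9.61%) and 36.9% for UVA peaks on iCLIP peaks (whole list 20.4%). The UVA peaks scored 97 to 191, and 7 of 8 scored at least 100, against 47.6% of the UVA list. Between 28.9% and 48.2% of the UVA list scored higher than these 8 peaks. The iCLIP peaks scored 15 to 135, and the UVC peaks 14 to 39. The highest UVA peak was chr11:70251204-70251254, 6.618 kb into the locus. The highest iCLIP peak was chr11:70268950-70269006, and 6 of 8 iCLIP peaks lay from 23.228 to 26.742 kb. UVC peaks began 0.06 kb from the start of the locus, and the highest, chr11:70279234-70279293, scored 39. The closest UVC and UVA peaks were 83 nt apart, and the closest UVA and iCLIP peaks 141 nt.

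**Figure D4:**
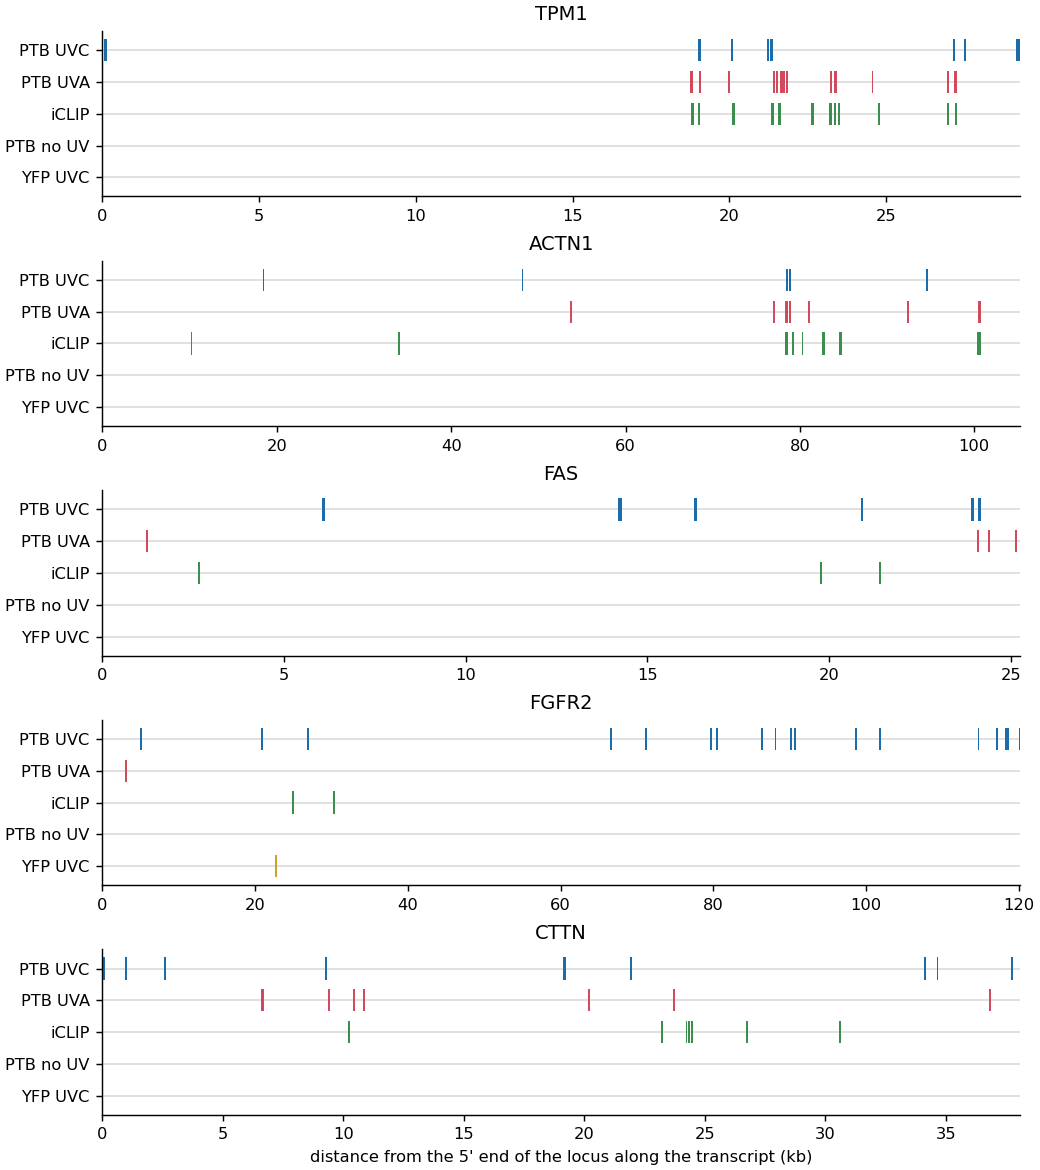
Peaks of the 5 lists along TPM1, ACTN1, FAS, FGFR2 and CTTN, 1 row a list, against distance from the 5′ end of each locus in kb; narrow peaks are drawn slightly wider so that they can be seen. From 18.81 kb on in TPM1, 9 of 13 UVA peaks lie on an iCLIP peak and 8 of 12 iCLIP peaks on a UVA peak, and the rest do not. In ACTN1 UVA and iCLIP peaks overlap near 78.38, 100.48 and 100.68 kb. In FAS, FGFR2 and CTTN no peaks of different PTB lists overlap, though in FAS a UVA and a UVC peak lie 2 nt apart.

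Over the 6 genes together, 16 of 85 UVC peaks lay on a UVA peak (18.8%, interval 11.2 to 28.8), against 9.61% of the whole UVC list. In the other direction it was 18 of 65 UVA peaks (27.7%, interval 17.3 to 40.2), against 13.6%. Neighbouring peaks of 1 site count separately here, and 5 of the shared UVA peaks lay in the 1 site at the end of PKM. By sites it was 12 of 62 for UVC (19.4%) and 12 of 56 for UVA (21.4%), with no whole-list share by sites given. Whether these shares exceed the whole lists by sites was not tested. PKM supplied most of the shared peaks. Of its UVC peaks 12 of 20 lay on a UVA peak (60%, interval 36.1 to 80.9), and of its UVA peaks 15 of 30 on a UVC peak (50%, interval 31.3 to 68.7). Without PKM the shares were 4 of 65 (6.15%, interval 1.70 to 15) and 3 of 35 (8.57%, interval 1.80 to 23.1), and both intervals hold the whole-list value.

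Against iCLIP, 13 of 85 UVC peaks (15.3%, interval 8.40 to 24.7) and 22 of 65 UVA peaks (33.8%, interval 22.6 to 46.6) were shared, against 5.45% and 20.4% of the whole lists. Without PKM they were 10.8% (interval 4.44 to 20.9, which holds the whole-list 5.45%) and 37.1% (interval 21.5 to 55.1). Most of these shared peaks outside PKM were in TPM1, where 6 of 14 UVC and 9 of 13 UVA peaks lay on an iCLIP peak. In ACTN1 it was 1 of 5 and 4 of 9, and in FAS, FGFR2 and CTTN 0. Seen from iCLIP, 9 of 49 peaks (18.4%, interval 8.76 to 32.0) lay on a UVC peak and 18 of 49 (36.7%, interval 23.4 to 51.7) on a UVA peak, against 9.59% and 25.9%. Without PKM these were 12.8% (interval 4.3 to 27.4) and 30.8% (interval 17.0 to 47.6). Seen from iCLIP, the intervals with and without PKM all hold the whole-list values. Each gene's own share rests on few peaks: the upper limit for the 0 of 20 FGFR2 UVC peaks in UVA is 16.8%, and for the 0 of 8 CTTN UVA peaks in iCLIP 36.9%. For the 0 of 4 FAS UVA peaks in iCLIP it is 60.2%.

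**Figure D5:**
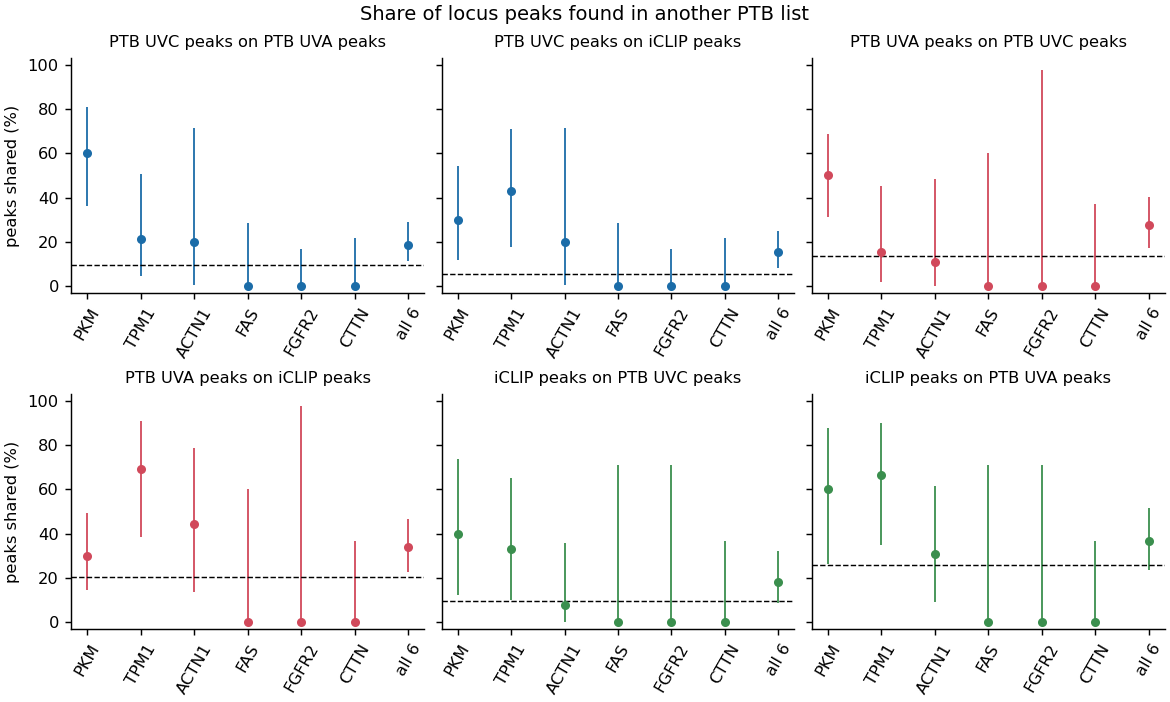
Percent of the peaks of 1 PTB list that overlap a peak of another, for each gene and for all 6 together (points, with exact 95% intervals), in 6 panels for the 6 ordered pairs. The dashed line is the same percent over the whole list. PKM and TPM1 points lie above the line in all panels, and FAS, FGFR2 and CTTN points lie at 0. The interval holds the line for TPM1 between UVC and UVA in both directions, and for PKM UVA peaks on iCLIP peaks. It clears the line only narrowly for PKM iCLIP peaks on UVA peaks (lower limit 26.2%, line 25.9%). The same is so for TPM1 iCLIP peaks on UVC peaks (9.92%, line 9.59%). Intervals take peaks as independent, although neighbouring peaks of 1 site count separately: TPM1 UVC on iCLIP is 6 of 14 peaks but 4 of 8 sites.

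When the 3 PTB lists were joined, the 6 genes held 125 sites, of which 27 (21.6%) were in at least 2 lists, against 12.7% of all joined sites. PKM had 12 of 28, TPM1 9 of 19, ACTN1 5 of 21 and FAS 1 of 12, the pair 2 nt apart, while FGFR2 had 0 of 22 and CTTN 0 of 23. Without PKM the count was 15 of 97 (15.5%). In all 3 lists were 7 joined sites (5.60%, against 2.20% of all joined sites), 3 in PKM, 3 in TPM1 and 1 in ACTN1. Counted by direct overlap, 6 of 62 UVC sites (9.68%) met both other lists, against 3.57% of all UVC sites. From the other lists it was 6 of 56 UVA sites (10.7%, against 4.38%) and 7 of 47 iCLIP sites (14.9%, against 5.66%). Of the 7 joined sites, 5 had bases covered by all 3 lists, and none of the 7 lay on a control peak.

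The form of the UVC peaks differed by strand. In the plus-strand genes (TPM1, FAS and CTTN) 32 of 40 UVC peaks (80.0%) touched another UVC peak, against 7 of 45 (15.6%) in the minus-strand genes. Over the whole UVC list the values were 60.8% on the plus and 18.4% on the minus strand. Of the 16 touching pairs in the plus-strand genes, 12 began with an interval of 11 nt, and 13 pairs measured 44 to 50 nt together. Of 4 pairs in the minus-strand genes 2 measured 44 to 50 nt. Both had an 11 nt interval at the lower position, which is the 3′ side on that strand. Whole-list shares of these pair forms are not given. In the minus-strand genes 17 of 45 UVC peaks (37.8%) were intervals of 50 nt, against 28.8% of the list on that strand. In the plus-strand genes it was 0 of 40, against 0.707% of the list on that strand. After joining, 14 UVC peaks of TPM1 made 8 sites, 11 of FAS made 6 and 15 of CTTN made 9, while 20 of FGFR2 made 18.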

How the data were processed

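GoldCLIP peak lists of PTB (UVC, UVA, no UV) and YFP (UVC), and of a published PTB iCLIP study, were read; each group of 2 samples has 1 list, and how its samples were combined is not stated. Builds hg19 and dm3 and the aligner Bowtie 1.1.2 appear in the submitters' processing notes. No source names the peak caller. The deposited score of each peak rises as the deposited p-value falls. Scores of 0 with a p-value of 0 were set to the limit of 1000. Deposited positions were written 1-based. Depth is unknown, which leaves precision to counting error.

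Peaks were assigned to loci by overlap, joined into sites within 20 nt on a strand, and compared with bedtools 2.31.1, where 1 shared nt on 1 strand counted as overlap. Intervals are Clopper-Pearson (95%). No p-value was computed. The rule named the highest-scoring peak per gene and PTB list (ties by width, then start), sites in all PTB lists and control peaks; further sites were chosen after their values were seen. Members and lists were chosen with earlier results of these data known. Planned exon, pathway-gene and motif counts were not made, since no hg19 annotation or genome was used. The alternatives were 50% coverage, score thresholds, other joining distances and boundaries, single counting of repeats and no strand. The interval code was tested on simulated data, with 5 of 5 checks exact. Versions were matplotlib 3.10.9, scipy 1.17.1, pandas 2.3.3, numpy 2.4.6 and Python 3.11.15.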

Additional observations from a re-analysis of the deposited data

How the results depend on the processing

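No paired analysis was possible because each group has 1 pooled list, and for the same reason no replicate could be left out. Of 164 recomputed totals and shares over the 6 genes, 135 stayed close to the reported value (counts within 1.5 times, shares within the interval) and 29 moved, all but 1 under a limit on the score. With scores of at least 100, the loci held 4 UVC, 30 UVA, 9 iCLIP, 0 no-UV and 0 YFP peaks, in 2, 22, 9, 0 and 0 sites. UVC peaks were then 100% shared with UVA (4 of 4, all in PKM) and 0% with iCLIP (0 of 4). UVA peaks were 16.7% shared with iCLIP (5 of 30). The iCLIP peaks were 22.2% shared with UVA (2 of 9) and 0% with UVC (0 of 9). No UVC peak lay on a control (0%), and 0 sites were in all 3 lists. At or above each list's median, there were 45 UVC, 31 UVA, 26 iCLIP and 1 YFP peaks, in 36, 23, 25 and 1 sites. UVA was 45.2% shared with UVC (14 of 31), iCLIP 19.2% with UVA (5 of 26), and 3 sites were in all 3 lists. No whole-list share is given under either score limit, so the shares under them have no background to be read against. With 50% of the peak covered, the UVC share on controls was 0%. Joining at 0 or 50 nt, midpoints, loci extended by 1 kb, single counting and strand moved none of these totals past those limits, nor did leaving out peaks on controls or sharing by sites, both added after seeing the data. Strand could change nothing inside the loci, which held no opposite-strand peak. Single counting could change nothing either, since no locus peak was a repeat. Counts and shares that were already 0 could only stay 0 where peaks were left out or more coverage was asked for. The 135 thus include recomputations that could not move, and their number is no measure of robustness. The number of control peaks limits every comparison with controls.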
